A study of Gnathonemus petersii with 18 samples.

Results

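The 3 genes scn2b, scn3b and scn4b encode beta subunits of voltage-gated sodium channels and were measured as mRNA in a weakly electric African river fish, the elephantnose fish (Gnathonemus petersii). They are the 3 entries among 28031 genes of the deposited table whose gene name equals one of these symbols, and all 3 passed the filter on low counts that left 20691 genes for testing. Trigeminal ganglion, spinal cord and cerebellum gave 6 libraries each, 18 in all, from 6 individual fish. The labels give no treatment, genotype, age or sex, and by its title the series concerns how early fine touch arose in vertebrates. The trigeminal ganglion holds the cell bodies of sensory neurons of the head, together with their glia.

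A voltage-gated sodium channel consists of a pore-forming alpha subunit that carries the inward current of the action potential and of associated beta subunits. Each beta subunit crosses the membrane once and has an immunoglobulin-like domain outside the cell. In mammals the beta subunits change channel gating and the amount of channel at the surface, and they also act as cell adhesion molecules. The products of SCN2B and SCN4B are linked to the alpha subunit by a disulfide bond in mammals, whereas that of SCN3B associates without one. The cytoplasmic tail of the mouse SCN4B product is known for its part in resurgent sodium current, a brief current on repolarisation described in cerebellar Purkinje cells and in large sensory neurons.

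Libraries held between 10346375 and 17587837 counts each, with similar ranges in the 3 tissues. The tissue labels were checked against marker genes. Titles of the cerebellum libraries read Brain. Summed CPM (library-scaled counts) of 5 sensory neuron genes were 1050 to 1870 in the ganglion, 72.8 to 134 in the spinal cord and 4.10 to 10.3 in the cerebellum, where isl1 and isl2 had no count. Of 7 spinal cord genes, the summed CPM were 0.0664 to 0.47 in the ganglion, 904 to 1260 in the spinal cord and 0 to 1.32 in the cerebellum. Those of 7 granule cell genes were 116 to 248 in the ganglion, 227 to 333 in the spinal cord and 7340 to 12200 in the cerebellum. Within that list cbln1 went the other way, at a mean of 17.9 CPM in the spinal cord and 4.82 CPM in the cerebellum. The sum of the 6 Purkinje cell genes did not mark the cerebellum either. It was 1140 to 2830 in the ganglion, 2090 to 3260 in the spinal cord and 1380 to 1830 in the cerebellum. Most of it came from aldoc, at means of 1920, 2470 and 1070 CPM in that order of tissues. Of the others, ca8, lhx1 and pcp4 had their highest mean in the cerebellum (62.4, 284 and 161 CPM), and lhx5 and itpr1 in the spinal cord. Ganglion replicate 5 stood apart: its expression across genes correlated less with its tissue (mean Spearman 0.872) than that of the remaining 5 ganglion libraries (0.923 to 0.938), and 1 gene took 16% of its counts. Ganglion replicate 2, at 0.923, did not stand apart in this measure, but it and replicate 5 were the lowest ganglion libraries in scn3b. In other measures it did: 1 gene took 5.9% of its counts, against 1.65% to 2.5% in replicates 1, 3, 4 and 6. Library scaling factors were 0.814 in replicate 2 and 0.611 in replicate 5, against 0.9736 to 1.064 in those 4. Calls that changed without replicates 2 and 5 are given beside the result.

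Levels of different genes are set side by side in TPM, a transcript abundance corrected for gene length. The counted length of scn4b was 2.27 times and that of scn2b 1.83 times that of scn3b. Tissues are compared in CPM. A difference was called when the edgeR quasi-likelihood F-test gave a Benjamini-Hochberg adjusted p below 0.05 over all tested genes and the tissues differed by 2-fold or more (1 on the log2 scale). The smallest count of any member in any library was 162, for scn3b, which carries a counting error of 7.9%.

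Of the 3 genes, scn4b separated the tissues most clearly, with the order ganglion, spinal cord, cerebellum. It stood at 206 CPM in the lowest ganglion library, 232 CPM at the median and 341 CPM in the highest. Spinal cord libraries ran from 65.2 CPM through a median of 76.7 CPM to 85.8 CPM, and cerebellum libraries from 15.7 CPM through 24.2 CPM to 26.8 CPM. No ranges overlapped between any pair of tissues. Mean levels were 246 ± 50.6 CPM in the ganglion, 76.1 ± 7.70 CPM in the spinal cord and 22.5 ± 4.31 CPM in the cerebellum (SD, n = 6 each). The gene was 10.9-fold higher in ganglion than in cerebellum (log2 fold change 3.45 ± 0.17 SE, edgeR adjusted p = 9.7e-13). Against the spinal cord the ganglion was 3.23-fold higher (1.69 ± 0.15, edgeR adjusted p = 2.1e-08), and the spinal cord was 3.37-fold higher than the cerebellum (1.75 ± 0.16, edgeR adjusted p = 9.72e-09). On log2(TPM + 0.1) the 3 differences were smaller, at 2.8, 1.25 and 1.55 in the same order (limma adjusted p = 1.49e-11, 2.11e-06 and 9.81e-08).

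The levels of scn2b lay closer together. Its CPM were 38.6 at the lowest, 41.8 at the median and 54.95 at the highest in ganglion libraries. They were 16.5, 19.8 and 26.1 at the same points in spinal cord libraries and 19.3, 25.3 and 37.6 in cerebellum libraries. In CPM the ganglion range thus lay above the other tissues, narrowly in the case of the cerebellum, whereas spinal cord and cerebellum overlapped. In TPM the ganglion range lay within that of the cerebellum. Ganglion libraries averaged 44.7 ± 6.44 CPM, spinal cord libraries 20.5 ± 3.705 CPM and cerebellum libraries 27.0 ± 6.45 CPM (SD, n = 6 each). The gene was 2.18-fold higher in ganglion than in spinal cord (1.13 ± 0.17 on the log2 scale, edgeR adjusted p = 1.32e-05) and was called. Ganglion over cerebellum gave 0.73 ± 0.17 (edgeR adjusted p = 0.000611), which missed the 2-fold limit, and so did spinal cord over cerebellum at -0.40 ± 0.17 (edgeR adjusted p = 0.0424). The call against the spinal cord also missed that limit on the TPM scale, at 0.71 on log2(TPM + 0.1) (limma adjusted p = 0.00253).

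For scn3b the ganglion libraries themselves disagreed. It had 215 CPM in ganglion replicate 1, 207 CPM in replicate 3, 195 CPM in replicate 4 and 127 CPM in replicate 6, but 58.9 CPM in replicate 5 and 19.1 CPM in replicate 2. The highest ganglion library was 11.3 times the lowest, compared with 1.42 times for scn2b and 1.66 times for scn4b in the same tissue. Spinal cord libraries ran from 34.1 CPM through a median of 51.6 CPM to 73.1 CPM and cerebellum libraries from 91.2 CPM through 108 CPM to 147 CPM, so that these tissues did not overlap with each other while the ganglion overlapped with both. Means were 137 ± 83.05 CPM in the ganglion, 52.3 ± 17.2 CPM in the spinal cord and 116.5 ± 23.8 CPM in the cerebellum (SD, n = 6 each).

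Spinal cord was 2.23-fold lower than cerebellum in scn3b (log2 fold change -1.16 ± 0.39, edgeR adjusted p = 0.0149), with 6 of 6 spinal cord libraries below the cerebellum mean. This SE and p rest on a spread fitted over all 3 tissues, so they include the disagreement among the ganglion libraries. Without ganglion replicates 2 and 5 the difference between spinal cord and cerebellum stayed at -1.16, with an edgeR adjusted p of 4.96e-05. Ganglion was 2.62-fold higher than spinal cord (1.39 ± 0.40, edgeR adjusted p = 0.00637), with 5 of 6 ganglion libraries above the spinal cord mean. Ganglion replicates 2 and 5 are the lowest in scn3b, so leaving them out can only raise the difference, here to 1.83. The call was lost on log2(TPM + 0.1), at 0.63 (limma adjusted p = 0.316), and without the 4 libraries highest in muscle actin, at 1.40 (edgeR adjusted p = 0.0501). Ganglion over cerebellum gave 0.24 ± 0.39 (edgeR adjusted p = 0.6) and was not called. Without ganglion replicates 2 and 5 it was 0.67, raised because these are the lowest in scn3b. On log2(TPM + 0.1), with all libraries, it was -0.78 (limma adjusted p = 0.184).

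**Figure D1:**
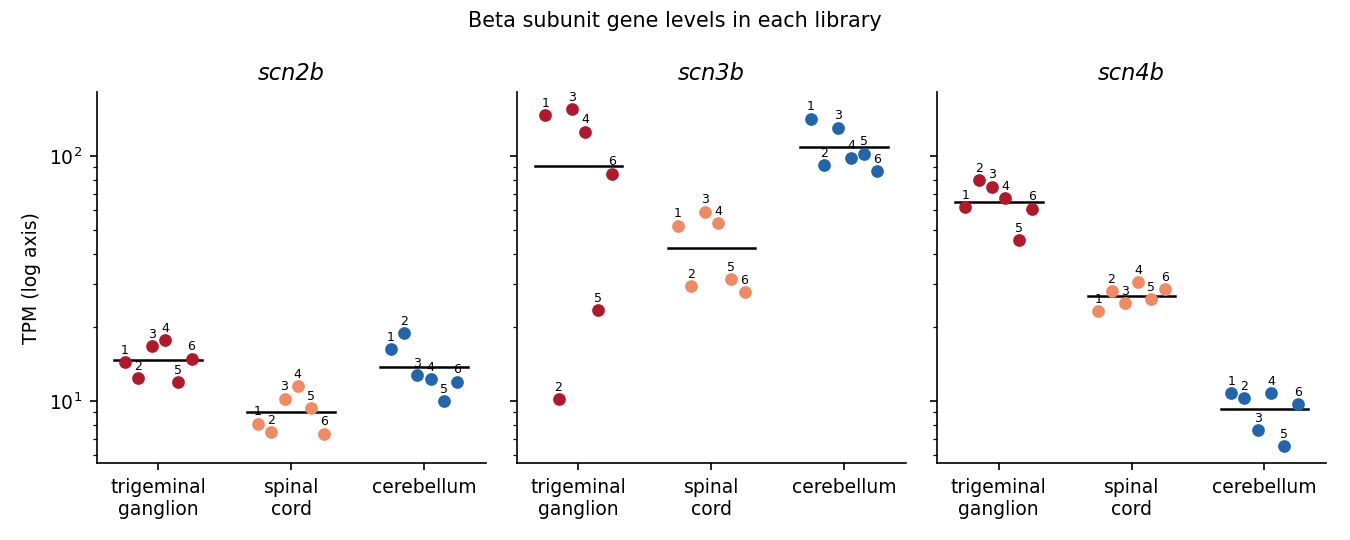
TPM (log axis) of scn2b, scn3b and scn4b in each of the 6 libraries of trigeminal ganglion, spinal cord and cerebellum; each point is a library labelled with its replicate number, and the line is the mean. The scn4b points fall into 3 separate bands, and scn3b spreads from 10.2 to 156 TPM within the ganglion.

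**Figure D2:**
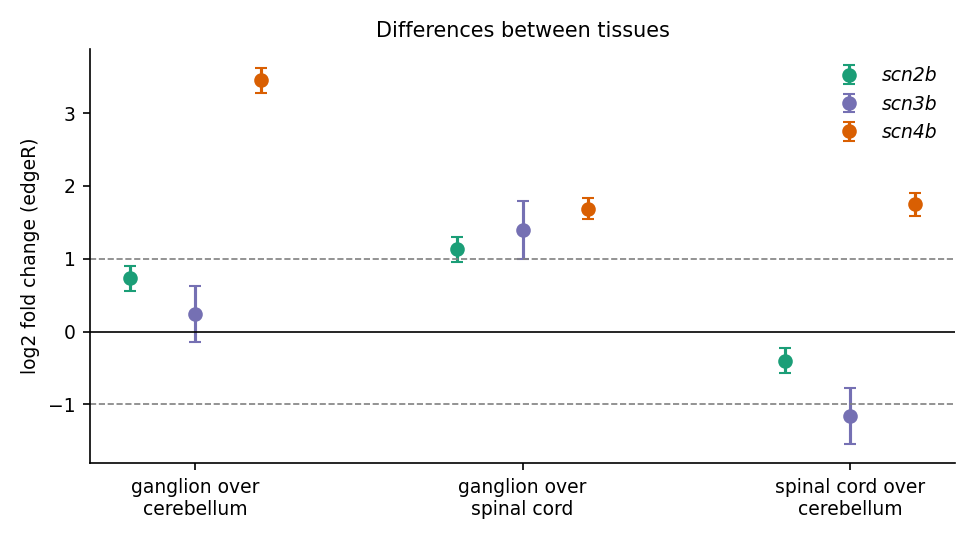
Log2 fold change of each gene by edgeR in the 3 tissue comparisons (points) with its approximate standard error (bars); dashed lines mark the 2-fold limit. The gene scn4b lies above the upper line in all 3 comparisons, at 3.45, 1.69 and 1.75, and scn3b has the widest bars.

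Read against the whole table, 1 of the 3 genes was called in ganglion over cerebellum, where 51.9% of 20691 tested genes were called (29.6% higher and 22.3% lower). There 2 of 3 passed the p threshold alone, as did 70.6% of all genes, but scn2b did not on log2(TPM + 0.1) (limma adjusted p = 0.559). In ganglion over spinal cord 3 of 3 were called, all higher, where 31.7% of all genes were called (14.5% higher and 17.3% lower) and 50.3% passed the p threshold alone. In spinal cord over cerebellum scn4b was called higher and scn3b lower, in a comparison that called 45.2% of genes (28.9% higher and 16.3% lower). All 3 passed the p threshold alone there, as did 65.0% of genes, but scn2b did not with the replicate block (edgeR adjusted p = 0.0533), with upper-quartile scaling (0.182) or without the 4 muscle-rich libraries (0.124). Library CPM ranges did not overlap for 47.9% of all genes in ganglion over cerebellum, for 29.9% in ganglion over spinal cord and for 51.9% in spinal cord over cerebellum. They did not overlap for scn2b and scn4b in both ganglion comparisons, nor for scn3b and scn4b in spinal cord over cerebellum. In TPM the ganglion (11.97 to 17.75) and cerebellum (9.98 to 18.97) ranges of scn2b did overlap. The absolute log2 fold change of scn4b exceeded that of 90.4% of tested genes in ganglion over cerebellum, 82.8% in ganglion over spinal cord and 74.0% in spinal cord over cerebellum.

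Between ganglion and cerebellum, scn2b differed by 0.73 in the edgeR fit and by 0.12 with limma on log2(TPM + 0.1), while scn3b turned in sign, at 0.24 and -0.78. Other scalings of the counts kept both near the edgeR values, at 0.84 and 0.37 with upper-quartile scaling and 0.72 and 0.22 with DESeq2. The median log2 fold change of all tested genes in that comparison was 0.07 with the TMM scaling used above and -0.65 on log2(TPM + 0.1). These medians are not over the same genes, because the limma fits kept genes with a TPM of at least 1 in at least 6 libraries. Relative to that median, scn2b lay at 0.66 with TMM and at 0.76 on log2(TPM + 0.1), and scn4b at 3.38 and 3.45. On the same footing scn3b lay at 0.16 and at -0.13, still of opposite sign.

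A ratio of genes within a library needs no scaling between libraries, so the balance among the 3 subunit genes was compared in this way on log2(TPM + 0.1). The largest level in the cerebellum was that of scn3b, at 109 ± 22.4 TPM, with scn2b at 13.7 ± 3.29 TPM and scn4b at 9.27 ± 1.78 TPM (SD, n = 6). Its share of the summed TPM of the 3 genes was 75.8% to 86.5% over the cerebellum libraries. In the spinal cord scn3b stood at 42.2 ± 14.1 TPM, scn4b at 27.0 ± 2.65 TPM and scn2b at 8.998 ± 1.66 TPM. Ganglion levels were 91.2 ± 62.8 TPM for scn3b, 65.2 ± 12.2 TPM for scn4b and 14.7 ± 2.30 TPM for scn2b.

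The level of scn4b was above that of scn2b in 6 of 6 ganglion libraries (mean log2 difference 2.13, exact sign-flip permutation adjusted p = 0.0469) and in 6 of 6 spinal cord libraries (1.59, same adjusted p), and below it in 6 of 6 cerebellum libraries (-0.55, same adjusted p). These two-sided tests had a smallest possible p of 0.0312 before adjustment over 9 tests. An adjusted p of 0.0469 was reached only because several of the 9 tests lay at that smallest p together. A test that reached it alone would not have passed, and the tests share genes and libraries. In the cerebellum scn3b exceeded both others in every library, by 2.99 over scn2b and with scn4b at -3.54 below it (exact sign-flip permutation adjusted p = 0.0469 each). In the ganglion scn4b and scn3b had no stable order: scn3b was higher in replicates 1, 3, 4 and 6 and scn4b in replicates 2 and 5, with a mean difference of 0.04 ± 1.63 (SD, n = 6, exact permutation adjusted p = 0.969). The same pair did not pass in the spinal cord, where scn4b exceeded scn3b in 1 of 6 libraries (-0.58 ± 0.56, exact permutation adjusted p = 0.0703), nor did scn3b over scn2b in the ganglion (2.09 ± 1.44, higher in 5 of 6, exact permutation adjusted p = 0.0703).

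Between tissues, the scn4b to scn2b ratio was higher by 2.69 on the log2 scale in ganglion (2.13 ± 0.28) than in cerebellum (-0.55 ± 0.26; SD, n = 6 each; exact two-sided permutation test, adjusted p = 0.00487 over 9 tests). It was higher by 2.14 in spinal cord (1.59 ± 0.27) than in cerebellum (exact permutation adjusted p = 0.00487) and by 0.55 in ganglion than in spinal cord (exact permutation adjusted p = 0.013), where the libraries overlapped. Ganglion replicate 2 had the highest ratio of its tissue, 2.68. The scn4b to scn3b ratio was likewise higher than in cerebellum by 3.58 in ganglion and by 2.96 in spinal cord (exact permutation adjusted p = 0.00487 each). The scn3b to scn2b ratio was lower in spinal cord (2.17 ± 0.37) than in cerebellum (2.99 ± 0.40), by -0.82 (exact permutation adjusted p = 0.013). Of the 9 comparisons of a ratio, 3 did not pass, all of them involving scn3b in the ganglion, with exact permutation adjusted p of 0.278 to 0.909.

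**Figure D3:**
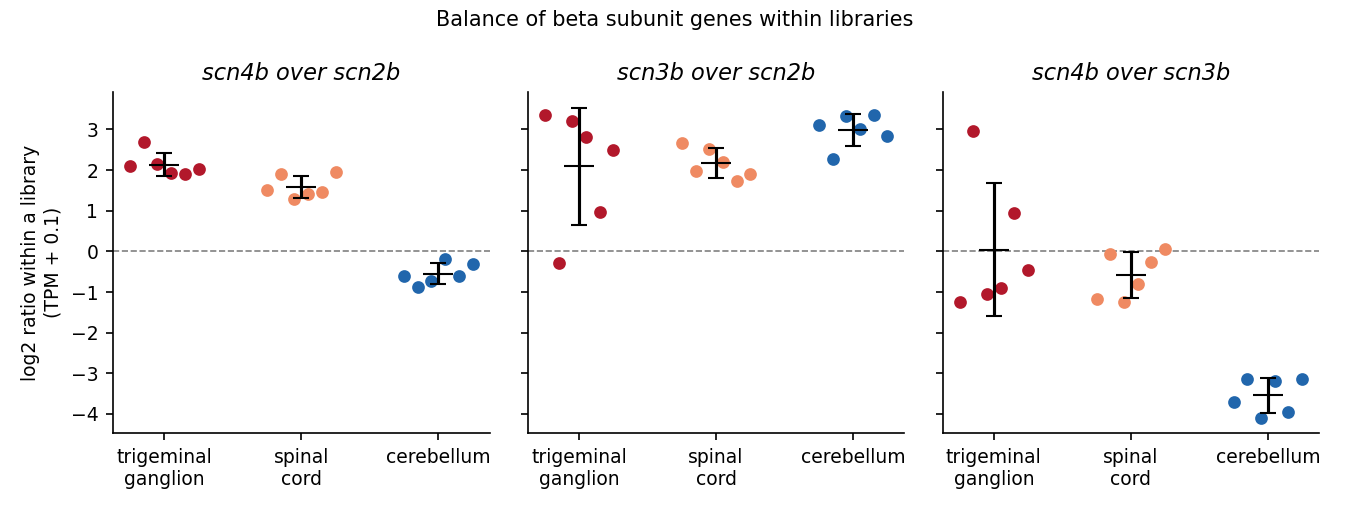
Log2 ratio of TPM + 0.1 between 2 subunit genes within each library (points), with the mean and SD of 6 libraries per tissue (black). The scn4b over scn2b ratio lies above 0 in ganglion and spinal cord, at means of 2.13 and 1.59, and below 0 in every cerebellum library, at a mean of -0.55.

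The spread of scn3b in the ganglion was wide by the standard of the whole table. Its SD of log2 CPM among ganglion libraries was 1.38, larger than that of 93.1% of tested genes, and larger than that of 96.9% of the 1799 genes with at least its ganglion level. By contrast, the SDs of scn2b (0.20) and scn4b (0.27) in the ganglion exceeded those of 5.11% and 12.7% of genes, with a median over all genes of 0.55. In the spinal cord the SDs were 0.25 for scn2b, 0.49 for scn3b and 0.15 for scn4b, beside a median of 0.31. In the cerebellum they were 0.33, 0.29 and 0.30 in the same order of genes, beside a median of 0.29. Among genes with at least the member's level, wide spread was not limited to the ganglion: the SD of scn3b exceeded 95.9% of such genes in the spinal cord and 86.5% in the cerebellum, and cerebellum SDs exceeded 89.1% for scn2b and 82.9% for scn4b.

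Markers of cell types were read in the same ganglion libraries. The 2 libraries with the least scn3b had the highest summed CPM of the 5 sensory neuron genes, 1872 in replicate 2 and 1769 in replicate 5, against 1047 to 1676 in the other 4. This order rested on prph: without it the sums were 1138 and 916, against 800 to 1306 in the others. In replicate 5 isl2 and ret were at their lowest of the 6 ganglion libraries. By contrast, isl1 was highest in replicates 2 and 5, at 336.9 and 300.1 CPM, against 186 to 263.7 CPM in the others. The 7 general neuron genes summed to 2479 CPM in replicate 2 and 1667 CPM in replicate 5, against 1721 to 2714 CPM in the others. Schwann cell genes (4 measured) summed to 4624 CPM in replicate 2 and 11090 CPM in replicate 5, against 2673 to 4429 CPM in the others. Fibroblast genes (4 measured) summed to 843 CPM in replicate 2 and 1701 CPM in replicate 5, against 402.5 to 1005 CPM in the others. No member of these lists was at 0 in a ganglion library. Single neuronal genes, picked here after their values were seen, did not all follow their sum: rbfox3 was at 3.54 CPM in replicate 2 and 0.626 CPM in replicate 5, against 8.75 to 16.15 CPM in the others, whereas the intermediate filament gene prph was at 734.5 and 852.6 CPM, against 246.6 to 408.7 CPM. In the list of rbfox3, elavl3 (848.7 and 690.2 CPM, against 282 to 522.7 CPM) and syn2 (152 and 131.5 CPM, against 45.59 to 86.52 CPM) were highest in replicates 2 and 5. The remaining genes of that list, elavl4, stmn2, uchl1 and eno2, were at their lowest in replicate 5, at 186.9, 34.75, 578.8 and 43.99 CPM. The part of these differences in the scn3b levels was not tested.

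**Figure D4:**
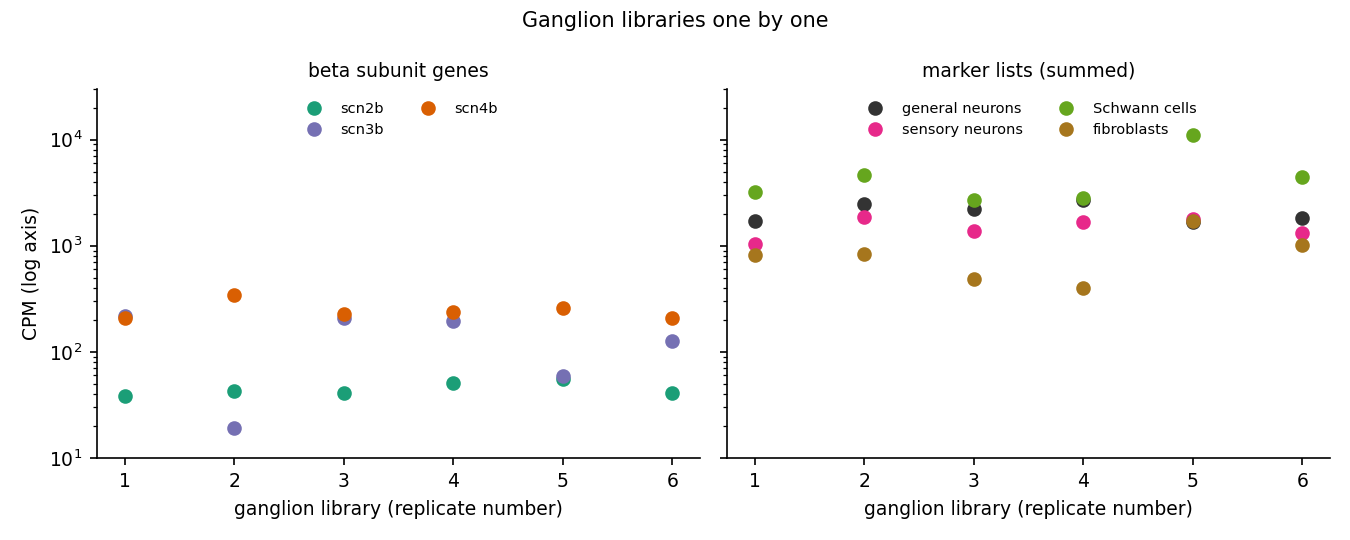
CPM (log axis) of the 3 subunit genes (left) and summed CPM of 4 marker lists (right) in each ganglion library, by replicate number. In replicates 2 and 5 scn3b is at 19.1 and 58.9 CPM while scn4b is at 341 and 258 CPM and the sensory neuron sum at 1872 and 1769 CPM.

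Between tissues the Schwann cell and fibroblast sums differed as well, in the order of scn4b but not of scn2b or scn3b, whose means were lower in spinal cord than in cerebellum. Schwann cell genes summed to 2670 to 11100 CPM in the ganglion, 26.4 to 156 CPM in the spinal cord and 3.53 to 9.63 CPM in the cerebellum, and fibroblast genes to 402 to 1700 CPM, 17.5 to 130 CPM and 7.57 to 21.4 CPM in that order of tissues. Summed general neuron genes differed less. They stood at 1670 to 2710 CPM in the ganglion, 1160 to 1840 CPM in the spinal cord and 1720 to 2360 CPM in the cerebellum. Within this sum single genes differed in opposite directions. In that order of tissues, the means of uchl1 (955, 316 and 62 CPM) and elavl4 (280, 253 and 96.7 CPM) had the order of scn4b. Those of rbfox3 (8.81, 35.5 and 244 CPM) had the reverse order, and the remaining genes of the list had neither. The order of scn4b was not particular to Schwann cells and fibroblasts. Median sums had it also for sensory neuron genes (1530, 95.4 and 8.93 CPM) and leukocyte genes (3 measured, 5140, 4330 and 957 CPM). The leukocyte sum came mostly from cd74, at means of 5740, 4110 and 979 CPM. The only blood gene measured, rhag, had that order too, at medians of 175, 41.8 and 12.6 CPM. Medians of the general neuron, granule cell, Purkinje cell, spinal cord, oligodendrocyte and skeletal muscle sums did not have it. In bulk tissue, more cells of a type and more RNA per cell cannot be told apart, and the part of cell composition in the levels of scn2b, scn3b and scn4b was not tested.

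The labels do not say that libraries with the same replicate number come from the same fish, but expression across all genes paired them in the data. For scn3b, replicates 1, 3 and 4 were the 3 highest libraries in each tissue. In the cerebellum replicate 4 was barely above replicate 5, at 108.47 against 108.16 CPM. Over the 6 numbers, log2 CPM of scn3b correlated at Pearson r = 0.832 between spinal cord and cerebellum (Spearman rho = 0.829), r = 0.714 between ganglion and spinal cord (rho = 0.657) and r = 0.567 between ganglion and cerebellum (rho = 0.829). None of these passed after adjustment over 9 relations (exact permutation adjusted p of 0.287 to 0.45 for r and 0.263 to 0.525 for rho). Without the 2 libraries farthest from the median, r over the remaining 4 numbers was 0.647, 0.971 and 0.884 in the same order of tissue pairs. The r of scn3b exceeded that of 90.6%, 86.5% and 81.2% of tested genes in that order. For scn2b and scn4b r ranged from -0.612 to 0.548, and none passed either (exact permutation adjusted p of 0.45 to 1.0 for r and 0.535 to 0.803 for rho).

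Pore-forming alpha subunits could not be set beside the beta subunits, because none of 11 alpha subunit symbols matched a gene of the table; genes that carry only a locus identifier were tested but not named. The sodium leak channel gene nalcn, a relative of the alpha subunits that carries a background current, ran opposite to scn4b. Its mean was 31.6 ± 5.52 CPM in the ganglion, 64.4 ± 6.87 CPM in the spinal cord and 86.7 ± 9.03 CPM in the cerebellum. It was lower in ganglion than in cerebellum (log2 fold change -1.45 ± 0.13, edgeR adjusted p = 5.94e-09) and than in spinal cord (-1.03 ± 0.13, edgeR adjusted p = 1.45e-06). The call against spinal cord sits at the 2-fold limit. It was lost with DESeq2, in the fit of these tissues alone, and without any one of ganglion replicates 1, 2 and 3, cerebellum replicates 1, 3, 4 and 6 and spinal cord replicate 4, at -1.0 to -0.97, and at -0.95 without ganglion replicates 2 and 5. Spinal cord over cerebellum was not called (-0.43 ± 0.13, edgeR adjusted p = 0.00561).

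Genes of the axon initial segment and the node of Ranvier, where sodium channels cluster on axons, gave 11 measured members of 24 listed. In ganglion over cerebellum 2 were higher, 3 lower and 6 not called (median log2 fold change -0.08, against 0.07 for all genes). Ganglion over spinal cord gave 1 higher, 3 lower and 7 not called (median 0.06, against -0.01), and spinal cord over cerebellum 4 higher, 1 lower and 6 not called (median -0.25, against 0.08). Of all tested genes, 51.9%, 31.7% and 45.2% were called in these 3 comparisons, in that order. On log2(TPM + 0.1) the lower members were 5 in ganglion over cerebellum and 2 in spinal cord over cerebellum. The paranodal axon protein gene cntnap1 had the order of scn4b: it averaged 19.3 ± 6.36 CPM in the ganglion, 4.22 ± 1.31 CPM in the spinal cord and 1.08 ± 0.854 CPM in the cerebellum, with log2 fold changes of 4.15 ± 0.45 for ganglion over cerebellum, 2.20 ± 0.40 for ganglion over spinal cord and 1.96 ± 0.43 for spinal cord over cerebellum (edgeR adjusted p = 9.9e-08, 0.000141 and 0.00051). The last of these was lost on log2(TPM + 1), at 0.62.

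Other members of that list did not share this order. The cell adhesion gene nfasc, whose product gathers channels at nodes, was higher in spinal cord than in cerebellum (1.44 ± 0.13), and nrcam, the most abundant uncalled member, was at -0.08 ± 0.23, 0.32 ± 0.23 and -0.40 ± 0.23 in the 3 comparisons. The sign of nrcam turned under other settings in both ganglion comparisons. The matrix proteoglycan gene vcan was higher than in cerebellum in ganglion (3.97 ± 0.25) and in spinal cord (3.98 ± 0.24). Its relative bcan was lower in ganglion than in cerebellum (-1.58 ± 0.28) and in spinal cord (-4.14 ± 0.30), and higher in spinal cord than in cerebellum (2.55 ± 0.28). The matrix glycoprotein gene tnr was lower in ganglion than in spinal cord (-1.37 ± 0.29). The potassium channel accessory gene kcnab1 was lower in ganglion than in cerebellum (-3.28 ± 0.40) and in spinal cord (-3.02 ± 0.40).

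Cytoplasmic partners and regulators of sodium channels gave 10 tested genes, of which 4 were higher, 2 lower and 4 not called in ganglion over cerebellum (median 0.47, against 0.07 for all genes). Ganglion over spinal cord gave 1 higher, 1 lower and 8 not called (median -0.32, against -0.01), and spinal cord over cerebellum 4 higher, 2 lower and 4 not called (median 0.78, against 0.08). The shares called among all tested genes were 51.9%, 31.7% and 45.2% in that order. On log2(TPM + 0.1), ganglion over cerebellum gave 1 higher and 4 lower, and ganglion over spinal cord gave 4 lower. The gene fgf13, which codes for an intracellular FGF homologue that binds sodium channels, was highest in cerebellum. It was higher in ganglion than in spinal cord (1.52 ± 0.16). Against cerebellum it was lower in ganglion (-1.36 ± 0.16) and in spinal cord (-2.88 ± 0.17). The presynaptic gene prrt2 was lower in ganglion (13.8 ± 4.41 CPM) than in spinal cord (179 ± 28.2 CPM), by -3.70 ± 0.23, and higher in spinal cord than in cerebellum, by 4.72 ± 0.24. Against cerebellum, ganglion was also higher in the syntrophin scaffold gene sntb1 (1.48 ± 0.26) and lower in the deubiquitinase gene usp2 (-1.68 ± 0.33). On log2(TPM + 1) the call of sntb1 was lost, at 0.64. The calmodulin gene calm3, the most abundant uncalled member, was at 0.49 ± 0.17, -0.34 ± 0.17 and 0.83 ± 0.17 in the 3 comparisons.

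Mammalian beta subunits are cut by BACE1 and then by gamma-secretase, and 5 of 10 listed genes of these enzymes were measured. In ganglion over cerebellum 1 was higher and 4 were not called (median -0.12, against 0.07 for all genes), in ganglion over spinal cord 1 was higher, 1 lower and 3 not called (-0.06, against -0.01), and in spinal cord over cerebellum 1 was higher and 4 were not called (-0.24, against 0.08). Among all tested genes 51.9%, 31.7% and 45.2% were called in that order. On log2(TPM + 1) and log2(TPM + 0.1), ganglion over cerebellum gave 0 higher and 2 lower, and ganglion over spinal cord gave 2 lower. With upper-quartile scaling, ganglion over cerebellum gave 2 higher. The protease gene bace1 averaged 53.5 ± 19.3 CPM in the ganglion, 119 ± 33.5 CPM in the spinal cord and 27.7 ± 6.12 CPM in the cerebellum. It was lower in ganglion than in spinal cord (-1.16 ± 0.23) and higher in spinal cord than in cerebellum (2.11 ± 0.24). The gamma-secretase subunit gene psenen was higher in ganglion than in cerebellum (1.47 ± 0.29) and in spinal cord (1.71 ± 0.29). The first of these was no longer called without ganglion replicate 5 (0.97), without replicates 2 and 5 (0.83) or on log2(TPM + 1) (0.63). The subunit gene ncstn was not called in either ganglion comparison (-0.55 ± 0.25 against cerebellum and -0.66 ± 0.25 against spinal cord), though it was on log2(TPM + 1), at -1.30 and -1.17, and psenen was not called in spinal cord over cerebellum (-0.24 ± 0.28).

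The myelin protein zero family shares the immunoglobulin-like fold of the beta subunits, and 3 of its 4 listed genes were measured. Myelin protein zero itself, mpz, averaged 4830 ± 3380 CPM in the ganglion, 3550 ± 784 CPM in the spinal cord and 175 ± 36.1 CPM in the cerebellum. Against cerebellum it was higher in ganglion (4.78 ± 0.35) and in spinal cord (4.34 ± 0.35), as was mpzl3 (3.01 ± 0.52 and 2.84 ± 0.52). The third gene, mpzl1, was not called against cerebellum in ganglion (-0.54 ± 0.12) or in spinal cord (-0.85 ± 0.12), but was on log2(TPM + 1), at -1.17 and -1.05. None of the 3 was called in ganglion over spinal cord, where mpz was at 0.44 ± 0.30 and turned to -0.02 without ganglion replicate 5. The medians of the family were 3.01, 0.31 and 2.84 in ganglion over cerebellum, ganglion over spinal cord and spinal cord over cerebellum. Those of all genes were 0.07, -0.01 and 0.08, and 51.9%, 31.7% and 45.2% of all tested genes were called. With 3 genes a median is the value of 1 gene, here mpzl3 in both comparisons with cerebellum. Its levels were low, at 4.37 ± 1.16 CPM in ganglion, 3.88 ± 1.74 CPM in spinal cord and 0.529 ± 0.431 CPM in cerebellum.

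The profile of each subunit gene over the 18 libraries was compared with those of 9052 other genes that carry a symbol and whose log2 CPM averaged 1 or more. Likeness was measured as the root mean square difference of log2 CPM after each gene's own mean was removed. Closest to scn4b were tbx3 (0.31), itga1 (0.32) and capns1 (0.34), beside a median of 1.60 for all genes compared. Closest to scn2b were nfs1 (0.23), cunh19orf70 (0.24) and cunh12orf57 (0.25), beside a median of 0.86. Closest to scn3b were tbc1d30 (0.51), itga8 (0.55) and rarg (0.60), beside a median of 1.13. The subunit genes were not among each other's nearest profiles: scn2b ranked 1158 from scn3b and 1811 from scn4b, and scn4b ranked 8053 from scn3b. Ranks differ with the gene they are counted from. Counted from scn2b, scn3b ranked 4898 (0.91) and scn4b 6626 (1.19), both beyond the median of 0.86. From scn4b, scn3b ranked 6157 (1.82). Over the 6 ganglion libraries alone, rpap1, tesk2 and pola1 were closest to scn3b (0.26 each, beside a median of 1.30). Picked for this likeness, they were also lowest in ganglion replicates 2 and 5. There tesk2 was at 4.37 and 10.96 CPM, against 23.78 to 36.24 CPM in the other ganglion libraries. What these genes share was not tested.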

How the data were processed

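RNA from 3 tissues of 6 fish was sequenced in 18 libraries made with a low-input kit, per the labels' protocols. Per the file headers, the deposited values are unnormalized counts of each gene in each library and, beside them, TPM. The submitters' processing notes name STAR 2.7.7a, Subread 2.0.1 with featureCounts, Trimmomatic 0.39 and CASAVA 1.8.2. Sources used here name no genome build, annotation or strand setting, so no positions or sequences are printed, and reads shared with gene copies or overlapping genes were not examined. All sample columns were used.

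Counts were filtered with filterByExpr, scaled by TMM and compared by the edgeR 4.0.16 quasi-likelihood F-test over 18 libraries (15 residual degrees of freedom). Software was R 4.3.3, limma 3.58.1, DESeq2 1.42.0, Python 3.11.15 and matplotlib 3.10.9. The test was checked on counts simulated as independent libraries with the same spread setting for every gene and tissue. That check does not cover paired libraries or a wider spread in 1 tissue. SE is the absolute log2 fold change divided by the square root of F. Each gene had 1 fitted spread for all 3 tissues, although the tissues differed in spread. The median SD of log2 CPM over all genes was 0.55 in ganglion, 0.31 in spinal cord and 0.29 in cerebellum. Within-library ratios used log2(TPM + 0.1). Replicates are libraries whose numbers the labels do not tie to fish. Any pair of libraries of a tissue differed beyond sampling noise (chi-square of 12.8 or more per degree of freedom). After tissue means were removed, same-number libraries correlated across genes at 0.124 to 0.403 (ganglion, spinal cord), 0.216 to 0.404 (spinal cord, cerebellum) and 0.0759 to 0.297 (ganglion, cerebellum). All 6 pairs passed 0.1 in the first and second of these comparisons and 4 of 6 in the third, so the numbers were taken as pairing through the spinal cord. The best match of a library in another tissue had its own number in 6 of 6 cases both ways, except 5 of 6 for ganglion libraries against spinal cord. The edgeR fit and the ratio tests between tissues nonetheless treated libraries as independent, with pairing as an alternative only.

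The members, lists and tests were chosen with earlier results of these data known. From each list the text names up to 4 called genes of largest change whose log2 CPM averaged 1 or more, and the most abundant uncalled gene. For each member it names the 3 closest profiles, and for scn3b also the 3 closest in the ganglion alone. Some genes this rule names are not reported here. Alternatives were DESeq2, upper-quartile scaling, limma on log2(TPM + 1) and log2(TPM + 0.1), no filter, tissue pairs alone, a replicate block and omitted libraries.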

Additional observations from a re-analysis of the deposited data

Results flagged for a closer look

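The log2 ratio of scn4b to scn2b in ganglion replicate 2, 2.68 on log2(TPM + 0.1), lay far from the other ganglion libraries by the Dixon criterion for groups of 6. It was 1 of 27 groups of values examined in this way, and chance flags about 1 in 20 groups.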

How the results depend on the processing

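For scn4b, the call and direction stayed the same under all 81 alternatives over 3 comparisons. For scn2b, 79 of 81 kept them: ganglion over spinal cord fell under 2-fold at 0.65 on log2(TPM + 1) and 0.71 on log2(TPM + 0.1). For scn3b, 75 of 81 did. Ganglion over spinal cord was no longer called at 0.64 on log2(TPM + 1), 0.63 on log2(TPM + 0.1) and 1.40 without the 4 libraries highest in muscle actin (ganglion replicate 1, spinal cord replicates 1, 3 and 5), which leaves fewer samples. Uncalled ganglion over cerebellum turned to -0.75 and -0.78 on those TPM scales and to -0.01 with the replicate block; the block changed no other call of the 3 genes.

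Without each library in turn, the level differences kept their sign but could not pass with 5 libraries: 2.91 to 3.13 (scn3b minus scn2b, cerebellum), 2.07 to 2.25 (spinal cord), -0.63 to -0.49 (scn4b minus scn2b, cerebellum), 1.51 to 1.65 (spinal cord), 2.02 to 2.18 (ganglion) and -3.62 to -3.43 (scn4b minus scn3b, cerebellum). Uncalled scn4b minus scn3b in the ganglion ranged from -0.55 to 0.30, and the uncalled scn3b to scn2b ratio of ganglion over spinal cord from -0.32 to 0.40. With same-number libraries paired in a sign-flip test, the same ratio comparisons between tissues passed as in the unpaired test.

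Counts of genes higher and lower in ganglion over cerebellum were 6132 and 4612, against 3075 and 7102 on log2(TPM + 1) and 3807 and 8033 on log2(TPM + 0.1). For ganglion over spinal cord, 2990 were higher, against 1201 and 1424 on those scales, and 3579 lower, against 5618 on log2(TPM + 0.1). The fits on the TPM scales also tested a different set of genes. The cause was not tested.

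Uncalled context genes turned as well: calm3 in ganglion over cerebellum to -0.19 on both TPM scales; mpz in ganglion over spinal cord to -0.17 on both, -0.15 without ganglion replicates 2 and 5 and -0.02 to 0.60 over single omissions; nrcam in ganglion over cerebellum to 0.02 with upper-quartile scaling, 0.06 without the muscle-rich libraries and -0.27 to 0.07 over single omissions, and in ganglion over spinal cord to -0.22 and -0.23 on the TPM scales and -0.18 without ganglion replicates 2 and 5.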
